A study of Mus musculus with 12 samples.

Results

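The mitochondrial carriers of the SLC25 family were examined in extensor digitorum longus (EDL) muscle of the mouse. The family was taken as every gene whose symbol begins with Slc25a and whose mean over the 12 libraries was at least 0.5 FPKM, fragments per kilobase of transcript scaled by sequencing depth. The table lists 44 such symbols, of which 39 met the minimum and were analysed. The table holds 17752 genes in all, and 12744 of them met the same minimum and were tested. The 5 carrier genes under the minimum were Slc25a2 at a mean of 0.245 FPKM, Slc25a43 at 0.14 FPKM, Slc25a21 at 0.109 FPKM, Slc25a48 at 0.0697 FPKM and Slc25a18 at 0.0575 FPKM.

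RNA-seq had been performed on whole EDL, a fast-twitch hind limb muscle, in 4 groups of 3 libraries. The groups were sedentary WT mice, sedentary strNrip1-/- mice, WT mice trained by voluntary wheel running and trained strNrip1-/- mice, all male, with the sedentary or training period starting at 8 weeks of age. Mice with a floxed Nrip1 allele had been bred to mice with Cre recombinase under the muscle creatine kinase promoter, which is active in heart and skeletal muscle, and the WT mice were Cre-negative littermates. Nrip1 encodes the corepressor RIP140, and the study asked which muscle genes change when it is lost and how training bears on this. RNA of the whole muscle also includes cells in which this promoter is not active.

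The carriers of this family sit almost entirely in the inner mitochondrial membrane, where each one exchanges or imports a particular set of solutes between cytosol and matrix. They pass ADP and phosphate inward and ATP outward, move the redox shuttle and citric acid cycle intermediates, admit acylcarnitines for oxidation, and supply the matrix with amino acids, cofactors, nucleotides, glutathione and iron. Muscle relies heavily on the ADP/ATP carrier Slc25a4 and the phosphate carrier Slc25a3, which feed ATP synthase.

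Expression of Nrip1 went against the labels, at 2.53 to 4.76 FPKM in the 6 libraries labelled WT and 14.9 to 20.7 FPKM in the 6 libraries labelled strNrip1-/-, so genotypes are given as labelled throughout. A value per gene does not show which exons of Nrip1 the fragments came from, and no cause was tested. The libraries corresponded to an estimated 20 to 29.2 M fragments (M, 1000000), and 3 fragments on a gene of 2 kb equalled 0.0514 to 0.0752 FPKM. All 10 muscle fiber markers were present, and their summed level was 103000 to 167000 FPKM. Genes of the mitochondrial genome took 43.8% ± 1.36 of all FPKM in sedentary labelled WT libraries, 52.3% ± 0.924 in sedentary labelled strNrip1-/- libraries, 46.0% ± 1.89 in trained labelled WT libraries and 45.0% ± 1.1 in trained labelled strNrip1-/- libraries (SD, n = 3 each). The labels do not say whether the libraries of a group came from separate animals, so the p-values measure only the spread between libraries.

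The 39 carriers spanned more than 3 orders of magnitude, and 4 genes carried most of the family's message. Slc25a4 averaged 2610 FPKM over the 12 libraries and Slc25a3 averaged 798 FPKM. Slc25a12, the aspartate-glutamate carrier known as aralar, averaged 245 FPKM, and Slc25a11, the oxoglutarate-malate carrier that completes the malate-aspartate shuttle with it, averaged 197 FPKM. Slc25a4 alone made up 58.8% to 63.5% of the carriers' summed FPKM in each library, and these 4 genes together 88.3% to 91.7%. The next gene was Slc25a20, the carnitine-acylcarnitine carrier that admits long-chain fatty acids for oxidation, at 67.3 FPKM. The lowest was Slc25a13, the liver-type paralog of Slc25a12 known as citrin, at 0.783 FPKM. The neighbors Slc25a28, an iron carrier, and Slc25a25, an ATP-Mg/phosphate carrier, both averaged 23.8 FPKM, but the SD of log2 values within a group was 0.129 for the former and 0.55 for the latter, the largest of the family. The smallest was 0.0591, for Slc25a46.

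**Figure D1:**
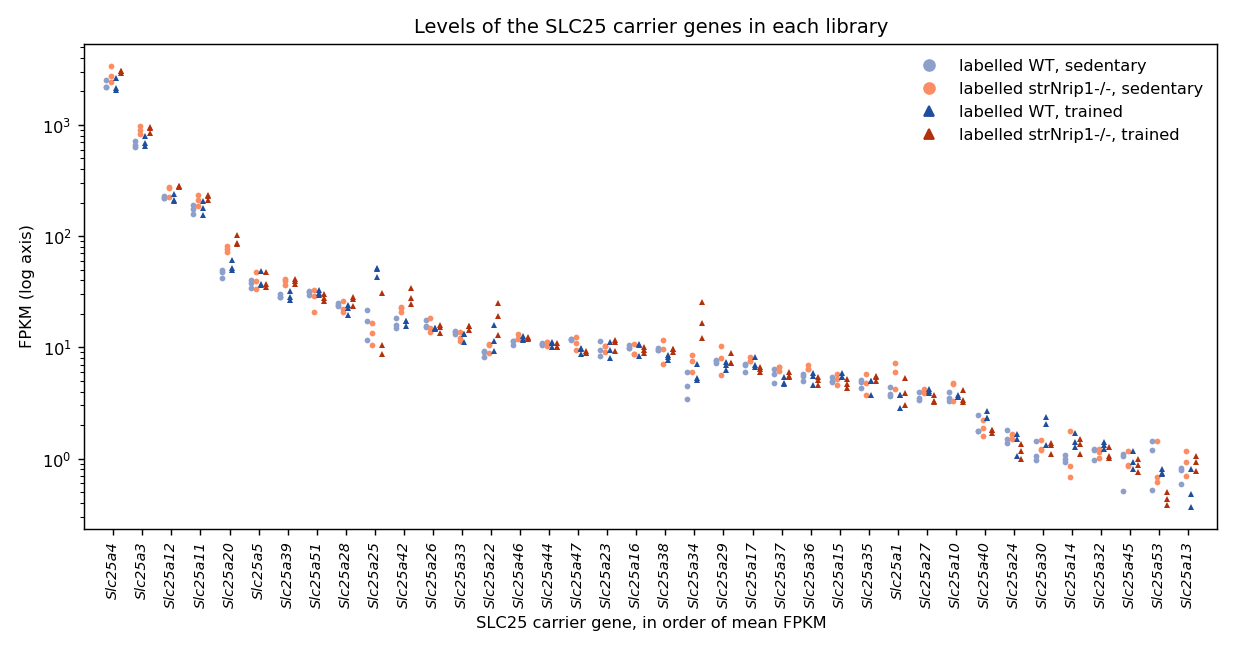
Level of the plotted carrier genes in each of the 12 libraries, in FPKM on a log axis, with the genes in order of their mean. Slc25a4, Slc25a3, Slc25a12 and Slc25a11 stand above the rest, and Slc25a25 is highest in the 3 libraries labelled WT and trained.

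Both paralog pairs favored the muscle isoform. The level of Slc25a4 was 54.7 to 87.2 times that of Slc25a5, the more widely expressed ADP/ATP carrier, and the level of Slc25a12 was 191 to 557 times that of Slc25a13. The ratio of Slc25a4 to Slc25a5 was 61.5 ± 5.89 in sedentary labelled WT libraries, 71.6 ± 10.7 in sedentary labelled strNrip1-/- libraries, 56.3 ± 1.56 in trained labelled WT libraries and 76.8 ± 11.1 in trained labelled strNrip1-/- libraries (SD, n = 3). The labelled genotypes overlapped in this ratio in sedentary libraries and did not overlap in trained libraries. The value of Slc25a5 is uncertain, since 49.4% of its 31-base words also occur in other annotated transcripts, led by Gm5560 with 30.4%. Slc25a35, a carrier with no settled substrate, shares 31.3% of its exon bases with Rangrf on the opposite strand, and the library kit does not keep strand, so its value is uncertain too.

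The family as a whole took a larger share of the nuclear transcriptome in the libraries labelled strNrip1-/-. Summed FPKM of the 39 carriers was 3740 ± 253 in sedentary labelled WT libraries, 4650 ± 626 in sedentary labelled strNrip1-/- libraries, 3820 ± 454 in trained labelled WT libraries and 4890 ± 129 in trained labelled strNrip1-/- libraries (SD, n = 3). As a share of all FPKM outside the mitochondrial genome, the sum ran from 0.588% to 0.631% in sedentary labelled WT libraries and from 0.777% to 0.823% in sedentary labelled strNrip1-/- libraries. In trained muscle it ran from 0.599% to 0.654% in libraries labelled WT and from 0.801% to 0.846% in libraries labelled strNrip1-/-. The labelled genotypes did not overlap in either state, whereas trained and sedentary libraries overlapped within each labelled genotype. Taken over all FPKM, mitochondrial genome included, the share was 0.34% to 0.35% against 0.367% to 0.402% in sedentary libraries and 0.331% to 0.348% against 0.451% to 0.459% in trained libraries, and on this scale the sedentary and trained libraries labelled strNrip1-/- did not overlap. These sums mostly describe Slc25a4 and Slc25a3.

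**Figure D2:**
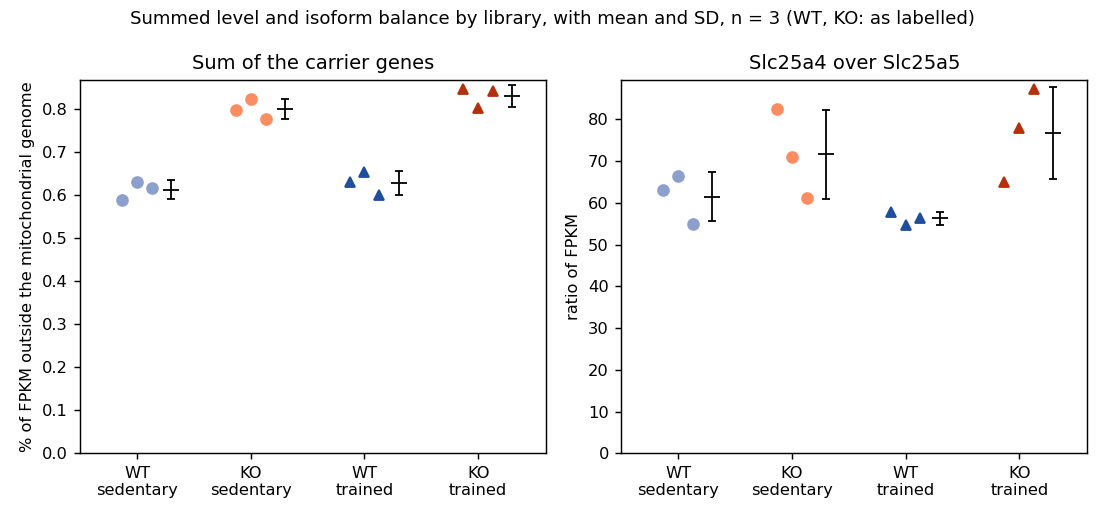
Left, summed FPKM of the 39 carriers as a percentage of all FPKM outside the mitochondrial genome, by library. Right, ratio of Slc25a4 to Slc25a5. Points are libraries, and black bars are mean and SD of 3. The share does not overlap between the labelled genotypes in either training state.

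Slc25a20 and Slc25a39, a glutathione carrier, were called higher in both genotype comparisons described below. Slc25a34 had the largest called increase and Slc25a25 was the 1 carrier called lower, both in trained muscle. The promoters of these 4, out of 7 called carriers, are shown here. Each runs from 250 bases before to 50 bases after a transcription start in RefSeq on GRCm38.p6, 5′ to 3′ on the strand of the gene. Capitals mark CCGGAAG, the core bound by ETS factors such as GABPA, in Slc25a20, starting 79 bases before the start site. In Slc25a39 and Slc25a34 they mark TGACCT, which is the nuclear receptor hexamer AGGTCA read on the other strand, 172 and 119 bases before the start. In Slc25a25 they mark TGACGTCA, the palindromic cAMP response element, 150 bases before 1 of its 3 listed starts. Of the called carriers not shown, Slc25a3 had CCGGAAG 175 bases before its start, and Slc25a12 and Slc25a42 had none of these motifs.
Slc25a20, chr9:108661886-108662185, plus strand: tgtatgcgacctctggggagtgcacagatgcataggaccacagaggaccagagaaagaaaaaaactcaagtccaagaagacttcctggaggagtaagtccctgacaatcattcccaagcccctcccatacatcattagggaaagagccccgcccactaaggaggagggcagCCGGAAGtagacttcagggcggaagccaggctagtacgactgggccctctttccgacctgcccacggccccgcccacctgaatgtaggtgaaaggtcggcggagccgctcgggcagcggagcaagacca
Slc25a39, chr11:102407468-102407767, minus strand: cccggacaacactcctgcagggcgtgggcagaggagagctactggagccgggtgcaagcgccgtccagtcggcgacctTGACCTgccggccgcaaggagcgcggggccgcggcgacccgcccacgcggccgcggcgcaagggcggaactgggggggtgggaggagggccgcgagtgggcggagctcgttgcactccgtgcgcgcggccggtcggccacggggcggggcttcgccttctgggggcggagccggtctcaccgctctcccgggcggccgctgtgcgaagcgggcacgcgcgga
Slc25a34, chr4:141623785-141624084, minus strand: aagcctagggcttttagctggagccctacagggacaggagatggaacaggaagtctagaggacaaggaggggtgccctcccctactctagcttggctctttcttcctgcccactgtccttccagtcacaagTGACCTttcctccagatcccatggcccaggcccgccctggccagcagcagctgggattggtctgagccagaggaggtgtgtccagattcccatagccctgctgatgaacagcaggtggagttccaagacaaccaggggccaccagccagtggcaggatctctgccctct
Slc25a25, chr2:32424017-32424316, minus strand: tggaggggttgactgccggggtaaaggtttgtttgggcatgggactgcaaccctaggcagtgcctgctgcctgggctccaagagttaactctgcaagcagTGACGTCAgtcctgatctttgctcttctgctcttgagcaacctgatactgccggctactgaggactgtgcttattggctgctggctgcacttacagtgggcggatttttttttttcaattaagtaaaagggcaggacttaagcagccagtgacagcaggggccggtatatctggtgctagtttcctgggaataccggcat

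The RefSeq table held 39 promoters for 30 of the carriers, among 32851 promoters of the same length. The 32851 were not limited to genes that met the minimum of 0.5 FPKM, as the carriers were. The 2 sides of each share below are therefore not like sets. Motifs were searched as exact letters on both strands. The GC box GGGCGG was in 35 carrier promoters (89.7%), against 35.7% of all promoters. CCGGAAG was in 6 carrier promoters (15.4%, of Slc25a3, Slc25a4, Slc25a17, Slc25a20, Slc25a25 and Slc25a38), against 8.86% of all, and TGACGTCA in 2 (5.13%, of Slc25a25 and Slc25a36), against 1.79%. AGGTCA was in 4 (10.3%), against 16.3% of all promoters. The ERR element TCAAGGTCA, which contains AGGTCA, was in 0 carrier promoters and 0.423% of all. The repeat of AGGTCA with 1 base between was in 0 carrier promoters and 0.0396% of all, and the NRF1 core GCGCATG in 0 and 3.91%. These are matches of letters and were not tested for binding. Slc25a26, Slc25a27, Slc25a32, Slc25a35, Slc25a37, Slc25a44, Slc25a46 and Slc25a51 had no entry.

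In sedentary muscle, Slc25a20, Slc25a39 and Slc25a3 were higher in libraries labelled strNrip1-/-, and no carrier was called lower. Calls required an adjusted p under 0.05 and a fold change over 1.2, with limma on log2(FPKM + 0.5), a scale that understates the change of low genes, and Benjamini-Hochberg adjustment over the 12744 genes. The 3 called carriers were 7.69% of the 39, beside 3.51% of all genes tested, of which 1.92% were called higher and 1.59% lower. The median log2 fold change of the carriers was 0.09, beside 0.00 for all genes tested, but it was -0.06 after equalizing the summed FPKM of the libraries, which moved the median of all genes to -0.14. Among the carriers, 26 values lay above 0 and 13 below. In 8 carriers (Slc25a3, Slc25a17, Slc25a20, Slc25a34, Slc25a36, Slc25a39, Slc25a42 and Slc25a46) every labelled strNrip1-/- library was above every labelled WT library, and in 1 carrier below. For all genes tested these shares were 9.79% higher and 10.9% lower.

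In trained muscle, Slc25a12, Slc25a20, Slc25a34, Slc25a39 and Slc25a42, a coenzyme A carrier, were higher in libraries labelled strNrip1-/-, and Slc25a25 was lower. These 6 calls were 15.4% of the 39, beside 5.98% of all genes tested (3.21% higher and 2.77% lower). The median of the carriers was -0.02, beside 0.01 for all genes, with 19 values above 0 and 20 below; it was 0.04 with libraries rescaled to the same sum and 0.02 with libraries rescaled to the same sum of nuclear genes. In 11 carriers (Slc25a3, Slc25a4, Slc25a11, Slc25a12, Slc25a20, Slc25a33, Slc25a34, Slc25a35, Slc25a38, Slc25a39 and Slc25a42) the labelled strNrip1-/- libraries were all above the labelled WT libraries, and in 5 (Slc25a15, Slc25a25, Slc25a27, Slc25a40 and Slc25a53) all below, beside 13.9% and 13.4% of all genes tested. Of the genes called over the whole table, 54.8% were higher in sedentary and 53.7% in trained libraries. These shares were 18.6% and 80.9% with libraries rescaled to the same sum, and 82.7% and 75.8% with libraries rescaled to the same sum of nuclear genes.

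The 7 carriers called in either state are protein-coding genes, placed here on GRCm38. Slc25a20 (ENSMUSG00000032602) lies on the plus strand at chr9:108662088-108684641. The others are on minus strands: Slc25a3 (ENSMUSG00000061904) at chr10:91116574-91124059, Slc25a12 (ENSMUSG00000027010) at chr2:71271063-71367749, Slc25a25 (ENSMUSG00000026819) at chr2:32414487-32451445, Slc25a34 (ENSMUSG00000040740) at chr4:141618824-141623821, Slc25a39 (ENSMUSG00000018677) at chr11:102402985-102407946 and Slc25a42 (ENSMUSG00000002346) at chr8:70184340-70212305.

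The 2 genotype comparisons share no library. Of the 39 carriers, 15 (38.5%) were higher in both, 9 (23.1%) lower in both and 15 (38.5%) of opposite sign. Over all genes tested these shares were 31.3%, 30.5% and 38.3%. Slc25a20 and Slc25a39 were called in both comparisons, among 7 carriers called in either. Over all genes, 269 were called in both and 940 in either. Pearson's r between the log2 fold changes was 0.693 across the 39 carriers and 0.378 across all genes tested. Genes are not independent replicates, and 1 fit gave both comparisons.

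**Figure D3:**
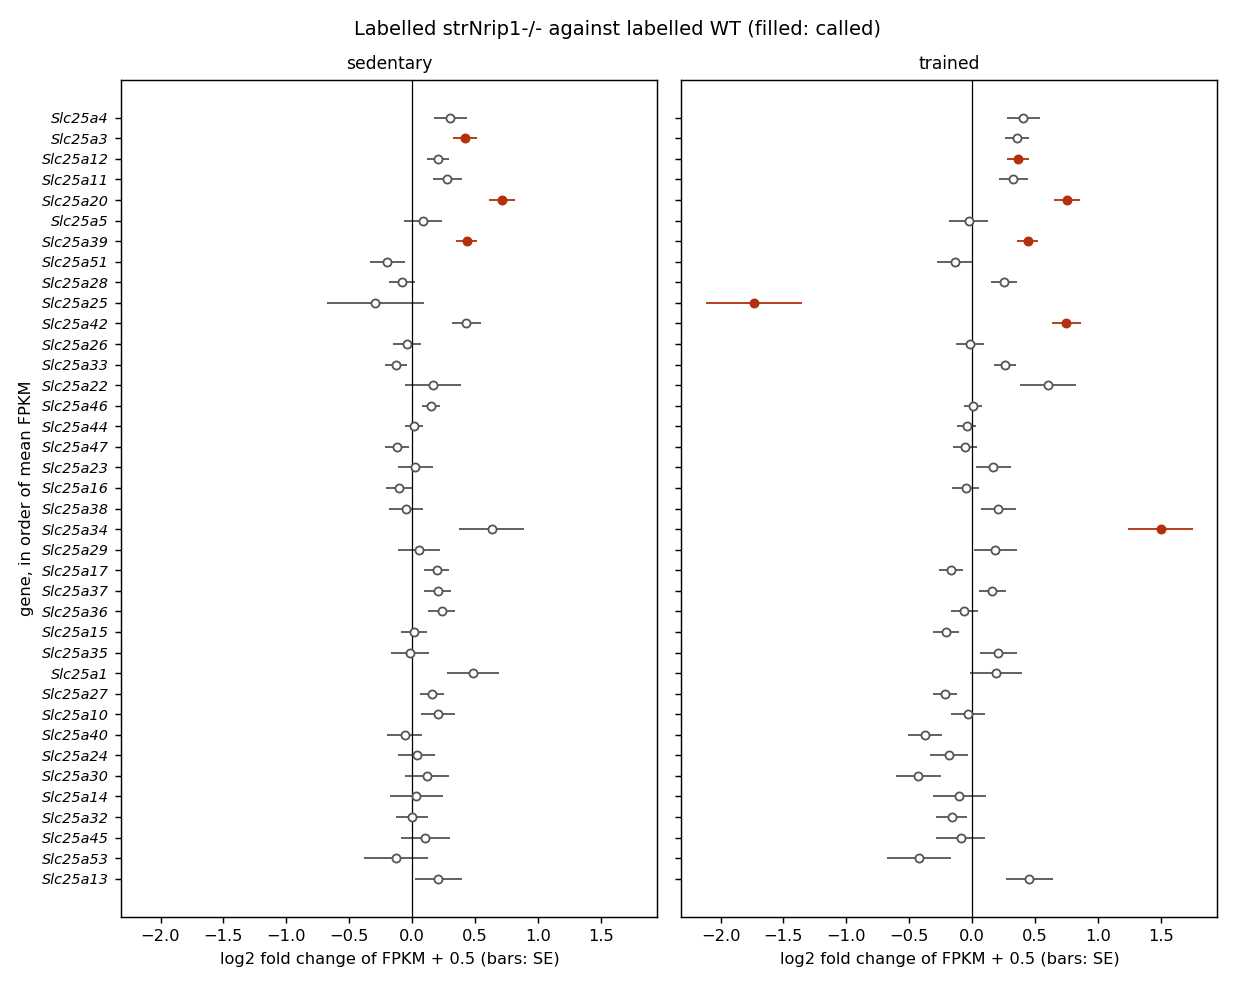
Difference between labelled strNrip1-/- and labelled WT libraries for the plotted carriers, as log2 fold change of FPKM + 0.5 with its SE, in sedentary (left) and trained (right) muscle, n = 3 libraries a group. Filled red points are called genes: 3 in sedentary libraries, all higher, and 6 in trained libraries, of which Slc25a25 is lower.

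Most calls lay among the abundant carriers. A division at a mean of 20 FPKM was chosen after the values were seen, so it is only described. The 11 carriers at or above it held 3 sedentary calls (27.3%, beside 3.51% of all genes tested) and 5 trained calls (45.5%, beside 5.98%). The share called among all genes at or above 20 FPKM was not counted, so these shares are not set against genes of like level. The median log2 fold changes of the 11 carriers were 0.28 and 0.36. The 28 carriers below it had medians of 0.03 and -0.05 and held 0 and 1 of the calls. Nuclear genes for subunits of the respiratory complexes and ATP synthase, 82 in number, had medians of 0.27 and 0.32, and 79 of the 82 were above 0 in each comparison. There were 7 calls among them in sedentary muscle (8.54%) and 13 in trained muscle (15.9%), all higher.

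Slc25a20, the route for acylcarnitines, had the firmest difference among the acylcarnitine and amino acid carriers. Its levels were 42.3, 48.0 and 49.9 FPKM in sedentary labelled WT libraries and 81.8, 72.6 and 76.0 FPKM in sedentary labelled strNrip1-/- libraries. In trained muscle they were 52.1, 61.0 and 49.2 FPKM in libraries labelled WT and 85.0, 103 and 87.1 FPKM in libraries labelled strNrip1-/-. Every labelled strNrip1-/- library was above every labelled WT library, across both training states. The log2 fold change was 0.71 ± 0.10 (SE) in sedentary libraries (limma, adjusted p = 0.003953), and 0.76 ± 0.10 in trained libraries (adjusted p = 0.002153). The gene was called under all 21 alternative settings in both comparisons.

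The other 5 carriers of this role, for amino acids, were not called. Slc25a22, the main glutamate carrier, was at 8.84 ± 0.562 FPKM in sedentary labelled WT, 10 ± 0.899 in sedentary labelled strNrip1-/-, 12.2 ± 3.45 in trained labelled WT and 19.0 ± 6.07 FPKM in trained labelled strNrip1-/- libraries (SD, n = 3), with wide spread in trained muscle. Its genotype difference in trained libraries was 0.60 ± 0.22 on the log2 scale (limma, adjusted p = 0.1435). Slc25a44, a carrier of branched-chain amino acids, stayed between 10 and 11.1 FPKM in all 12 libraries, and its log2 fold changes in the 2 genotype comparisons were 0.01 and -0.04. Slc25a38 for glycine averaged 9.13 FPKM, Slc25a29 for basic amino acids 7.53 FPKM and Slc25a15 for ornithine 5.15 FPKM, with genotype differences between -0.21 and 0.21.

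Among the adenine nucleotide and phosphate carriers, Slc25a3 was higher in sedentary labelled strNrip1-/- libraries and Slc25a25 was lower in trained labelled strNrip1-/- libraries. Slc25a3 was at 631, 722 and 658 FPKM in sedentary labelled WT libraries and at 892, 986 and 820 FPKM in sedentary labelled strNrip1-/- libraries. In trained muscle it was at 692, 792 and 652 FPKM in libraries labelled WT and at 949, 850 and 928 FPKM in libraries labelled strNrip1-/-. The labelled genotypes did not overlap in either state. The log2 fold change was 0.42 ± 0.10 in sedentary libraries (limma, adjusted p = 0.03792) and 0.36 ± 0.10 in trained libraries, where it missed the threshold (adjusted p = 0.0542). The sedentary call held under 11 of the 21 alternatives and was lost, for instance, without labelled WT replicate 1 (adjusted p = 0.1514).

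Slc25a4, the most abundant carrier, was not called. Its levels were 2170, 2520 and 2200 FPKM in sedentary labelled WT libraries and 2770, 3380 and 2410 FPKM in sedentary labelled strNrip1-/- libraries, where the lowest labelled strNrip1-/- library lay below the highest labelled WT library. In trained muscle the levels were 2140, 2650 and 2050 FPKM in libraries labelled WT and 3070, 2920 and 3040 FPKM in libraries labelled strNrip1-/-, without overlap. The log2 fold changes were 0.30 ± 0.13 (adjusted p = 0.2827) and 0.41 ± 0.13 (adjusted p = 0.09697, limma). A call was made in trained libraries under 5 of the 21 alternatives. Slc25a5 differed by 0.09 and -0.03.

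Slc25a25, a calcium-regulated carrier that exchanges ATP-Mg for phosphate, was high in trained libraries labelled WT. Its levels were 51.5, 42.9 and 50.4 FPKM there, and 30.7, 10.5 and 8.65 FPKM in trained libraries labelled strNrip1-/-. Sedentary levels were 21.6, 11.7 and 17.1 FPKM in libraries labelled WT and 10.5, 13.4 and 16.4 FPKM in libraries labelled strNrip1-/-. The 3 trained labelled WT libraries were above the other 9, and trained labelled strNrip1-/- replicate 1 lay between them and the rest. The genotype difference was -1.73 ± 0.38 on the log2 scale in trained libraries (limma, adjusted p = 0.02392) and -0.29 ± 0.38 in sedentary libraries (adjusted p = 0.8021). The trained call held under 16 of the 21 alternatives, and without trained labelled strNrip1-/- replicate 2 the adjusted p was 0.09856. The difference between the 2 genotype differences, -1.44 ± 0.54, did not pass (unadjusted p = 0.02212, adjusted p = 0.608). Its paralogs did not share the pattern in their values: Slc25a23 was between 8.01 and 11.7 FPKM in all libraries, and Slc25a24 between 0.992 and 1.79 FPKM. Slc25a25 shares 4.8% of its exon bases with Naif1 on the opposite strand.

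In the malate-aspartate shuttle, Slc25a12 was higher in trained labelled strNrip1-/- libraries, and Slc25a11 was not called. Slc25a12 was at 219, 220 and 231 FPKM in sedentary labelled WT libraries and at 273, 278 and 225 FPKM in sedentary labelled strNrip1-/- libraries, which overlapped through labelled strNrip1-/- replicate 3. Trained levels were 209, 238 and 206 FPKM in libraries labelled WT and 278, 282 and 280 FPKM in libraries labelled strNrip1-/-, without overlap. The log2 fold change was 0.21 ± 0.09 in sedentary libraries (limma, adjusted p = 0.259) and 0.37 ± 0.09 in trained libraries (adjusted p = 0.03054). The trained call held under 16 of the 21 alternatives, with an adjusted p of 0.1121 without trained labelled WT replicate 3. Slc25a11 had values of 0.28 ± 0.12 (adjusted p = 0.2499) and 0.33 ± 0.12 (adjusted p = 0.1238).

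The remaining di- and tricarboxylate carriers were low. Slc25a1, which exports citrate for lipid synthesis, averaged 4.32 FPKM and reached its highest level, 7.27 FPKM, in sedentary labelled strNrip1-/- replicate 3. Its sedentary difference was 0.49 on the log2 scale and was not called. The 8 adipocyte markers, 7 of which passed the minimum, summed to 60.8 to 63.2 FPKM in sedentary labelled WT libraries and 77.5 to 164 FPKM in sedentary labelled strNrip1-/- libraries, highest in that same replicate 3, with no marker at 0 in any library. Plin4 held 38.0, 35.2 and 50.1 FPKM of the sedentary labelled WT sums, and its sedentary log2 difference was -0.07. The other 6 markers that passed had values above 0, up to 1.7. Trained sums were 73.6 to 144 FPKM and 97.5 to 169 FPKM. The 144 was in trained labelled WT replicate 2, where Slc25a1 was lowest, at 2.87 FPKM. The 169 was in trained labelled strNrip1-/- replicate 3, where Slc25a1 was at 5.3 FPKM. The part of these markers in the values of Slc25a1 was not tested. The dicarboxylate carrier Slc25a10 averaged 3.76 FPKM, with differences of 0.20 and -0.03. In a whole muscle, fewer cells of a type and less RNA per cell cannot be told apart.

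Of the 11 carriers of cofactors, nucleotides and glutathione, Slc25a39 was higher in both states and Slc25a42 in trained muscle. Slc25a39 imports glutathione into the matrix. It was at 28.2, 30.3 and 28.2 FPKM in sedentary labelled WT libraries and at 36.3, 41.5 and 39.8 FPKM in sedentary labelled strNrip1-/- libraries. Trained levels were 28.5, 31.9 and 26.4 FPKM in libraries labelled WT and 40.9, 37.4 and 39.8 FPKM in libraries labelled strNrip1-/-. Every labelled strNrip1-/- library was above every labelled WT library. The log2 fold change was 0.43 ± 0.08 in sedentary libraries (limma, adjusted p = 0.01657) and 0.44 ± 0.08 in trained libraries (adjusted p = 0.01095). The calls held under 16 and 20 of the 21 alternatives, and the highest adjusted p were 0.07488 without sedentary labelled WT replicate 1 and 0.05008 without trained labelled strNrip1-/- replicate 3. Its paralog Slc25a40 was at 2.02 FPKM on average, with differences of -0.06 and -0.37 that were not called.

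Slc25a42, which brings coenzyme A into the matrix, was at 15, 15.8 and 18.2 FPKM in sedentary labelled WT libraries and at 22.6, 20.7 and 23.2 FPKM in sedentary labelled strNrip1-/- libraries. Trained levels were 17.3, 15.5 and 17.4 FPKM in libraries labelled WT and 24.7, 33.9 and 27.5 FPKM in libraries labelled strNrip1-/-. The labelled genotypes did not overlap in either state. The difference was 0.43 ± 0.12 in sedentary libraries, short of the threshold (limma, adjusted p = 0.07243), and 0.75 ± 0.12 in trained libraries (adjusted p = 0.004264), where it was called under all 21 alternatives. Slc25a51, the NAD carrier, averaged 29.3 FPKM with differences of -0.20 and -0.14, and was not called. Slc25a26, for S-adenosylmethionine, averaged 15.4 FPKM and Slc25a32, for folate and FAD, 1.17 FPKM, and neither was called.

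The iron and uncoupling-protein-like carriers gave no call. Slc25a28, or mitoferrin 2, was at 23.4, 24.0 and 24.8 FPKM in sedentary labelled WT, 22.0, 25.9 and 20.7 FPKM in sedentary labelled strNrip1-/-, 23.9, 22.6 and 19.6 FPKM in trained labelled WT and 23.5, 28.1 and 27.2 FPKM in trained labelled strNrip1-/- libraries. The labelled genotypes overlapped in both states, and the differences were -0.08 and 0.25. Slc25a37, or mitoferrin 1, the form used by red cell precursors, averaged 5.67 FPKM with differences of 0.20 and 0.16. Summed blood markers ran from 723 to 1830 FPKM over the libraries. Slc25a27 was the highest of the uncoupling-protein-like genes, at 3.5, 3.33 and 3.94 FPKM in sedentary labelled WT, 4.24, 4.05 and 3.86 FPKM in sedentary labelled strNrip1-/-, 4.01, 3.89 and 4.18 FPKM in trained labelled WT and 3.74, 3.21 and 3.28 FPKM in trained labelled strNrip1-/- libraries. Its trained groups did not overlap, lower in labelled strNrip1-/-, but the difference of -0.21 was not called (limma, adjusted p = 0.2217). Slc25a30 and Slc25a14 averaged 1.41 and 1.22 FPKM.

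Among the 6 carriers with no settled substrate or with another role, Slc25a34 was called and the other 5 were not. Its levels were 3.41, 4.5 and 5.97 FPKM in sedentary labelled WT libraries and 7.51, 6.01 and 8.52 FPKM in sedentary labelled strNrip1-/- libraries. They were 5.11, 7.14 and 5.32 FPKM in trained labelled WT libraries and 12.1, 25.6 and 16.5 FPKM in trained labelled strNrip1-/- libraries. The labelled genotypes did not overlap in either state, narrowly so in sedentary muscle, and the 3 trained labelled strNrip1-/- libraries were above the other 9. The difference was 1.5 ± 0.26 on the log2 scale in trained libraries (limma, adjusted p = 0.007397), the largest rise of the family, and was called under all 21 alternatives. In sedentary libraries it was 0.63 ± 0.26 (adjusted p = 0.2473), and the interaction of 0.86 ± 0.37 did not pass (adjusted p = 0.6267). Slc25a46, an outer membrane protein that acts in mitochondrial shape, was the highest of this role at 11.5, 11.3 and 10.5 FPKM in sedentary labelled WT, 11.9, 13.1 and 12.2 FPKM in sedentary labelled strNrip1-/-, 12.6, 12 and 11.6 FPKM in trained labelled WT and 11.8, 12.4 and 12.1 FPKM in trained labelled strNrip1-/- libraries. Its labelled genotypes did not overlap in sedentary libraries and overlapped in trained libraries, and its genotype differences of 0.15 and 0.00 were not called.

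**Figure D4:**
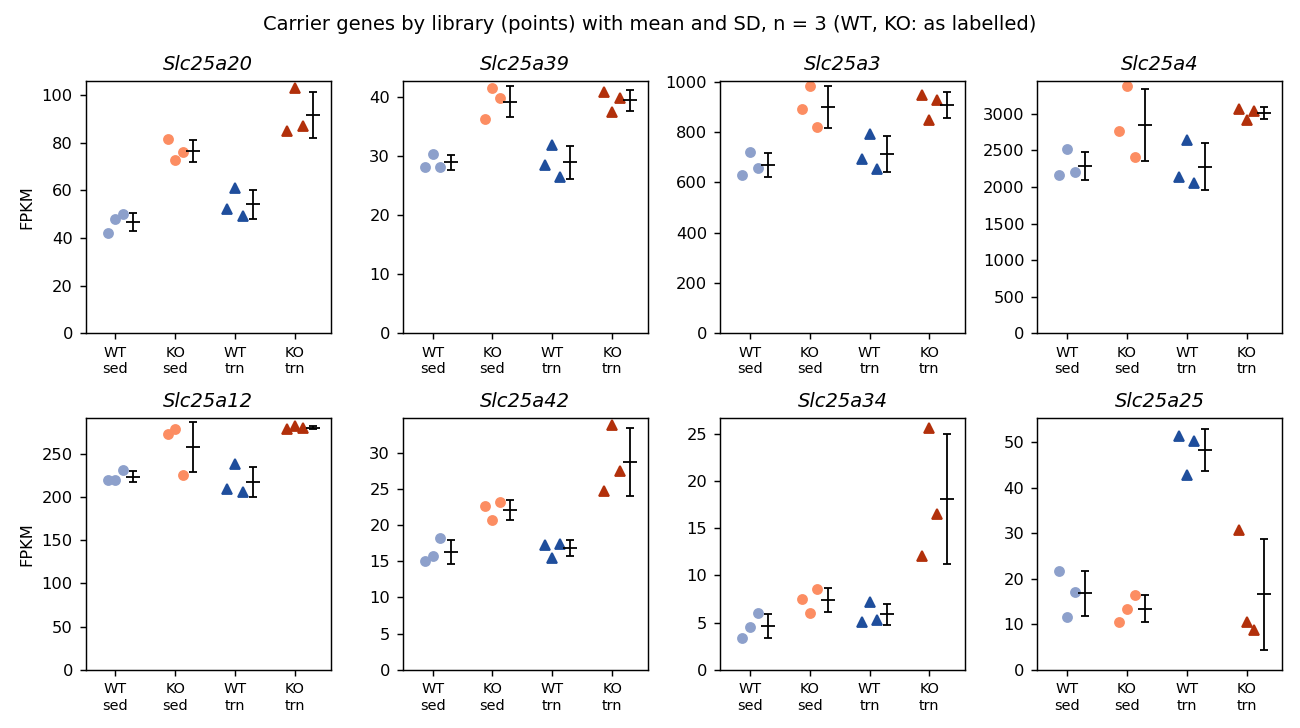
FPKM of 8 carriers in each library (points) with mean and SD of 3 libraries (black), from 0. WT and KO are the labels, sed is sedentary and trn trained. Slc25a20, Slc25a39, Slc25a3, Slc25a42 and Slc25a34 separate the labelled genotypes in both states. Slc25a34 is highest in the 3 trained labelled strNrip1-/- libraries and Slc25a25 in the 3 trained labelled WT libraries.

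Markers of some of the cell types in a whole muscle also differed in level between the labelled genotypes, though few were called. The sum of 9 endothelial markers ran from 93.6 to 101 FPKM in sedentary labelled WT and from 110 to 123 FPKM in sedentary labelled strNrip1-/- libraries, and from 95.7 to 107 FPKM against 122 to 125 FPKM in trained libraries, with no marker at 0. Of these markers 0 were called in sedentary libraries and 1, the receptor Tie1, in trained libraries (0.42 ± 0.08, limma adjusted p = 0.0125). The 10 muscle fiber markers summed to 139000 to 156000 FPKM against 103000 to 141000 FPKM in sedentary and 137000 to 167000 FPKM against 120000 to 125000 FPKM in trained libraries, with overlap in the sedentary state. Of these 10 fiber markers, 9 had values below 0 in each state, with medians of -0.35 in sedentary and -0.29 in trained libraries. The 1 fiber marker called was Actn3, the alpha-actinin of fast fibers. It was lower in libraries labelled strNrip1-/- in both states (-0.90 ± 0.08 and -0.75 ± 0.08). The 1 marker above 0 was the fast myosin Myh1, with values of 0.22 and 0.38 that were not called. The 7 fibroblast markers summed to 417 to 455 FPKM against 458 to 559 FPKM in sedentary and, in the opposite direction, 545 to 606 FPKM against 454 to 535 FPKM in trained libraries, with 0 called in either. Of 7 Schwann cell markers, 7 had values below 0 in sedentary and 6 above 0 in trained libraries, with 0 called and overlapping sums in both. The sums of 8 macrophage markers and of 6 tendon markers also overlapped between the labelled genotypes in both states, with 0 called. The part of these cell types in the carrier differences was not tested.

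Training was compared within each labelled genotype, and no carrier passed the test. In libraries labelled WT, 0 of 39 carriers were called, as were 0% of all genes tested, and 3 carriers had an unadjusted p under 0.05 (Slc25a25, Slc25a30 and Slc25a47), beside 8.33% of all genes. In libraries labelled strNrip1-/-, 0 carriers and 0% of all genes were called, and 11 carriers had an unadjusted p under 0.05, or 28.2%, beside 12.1% of all genes. The 11 were Slc25a1, Slc25a17, Slc25a20, Slc25a22, Slc25a24, Slc25a27, Slc25a33, Slc25a34, Slc25a36, Slc25a42 and Slc25a47. The median log2 fold change of the carriers was 0.00 in both comparisons, beside 0.00 and 0.01 for all genes, but in libraries labelled strNrip1-/- it was 0.17 with libraries rescaled to the same sum, where the median of all genes was 0.16.

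The largest training values of the family were those of Slc25a25 and Slc25a34. Slc25a25 had a log2 value of 1.53 ± 0.38 in libraries labelled WT (limma, adjusted p = 0.4022) and 0.09 ± 0.38 in libraries labelled strNrip1-/- (adjusted p = 0.9522). Slc25a34 had 0.33 ± 0.26 (adjusted p = 0.7955) and 1.19 ± 0.26 (adjusted p = 0.2005). Slc25a22 had 0.41 ± 0.22 (adjusted p = 0.6758) and 0.85 ± 0.22 (adjusted p = 0.2309). The genotype comparisons and the training comparisons share libraries, so these values are not separate from those above.

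**Figure D5:**
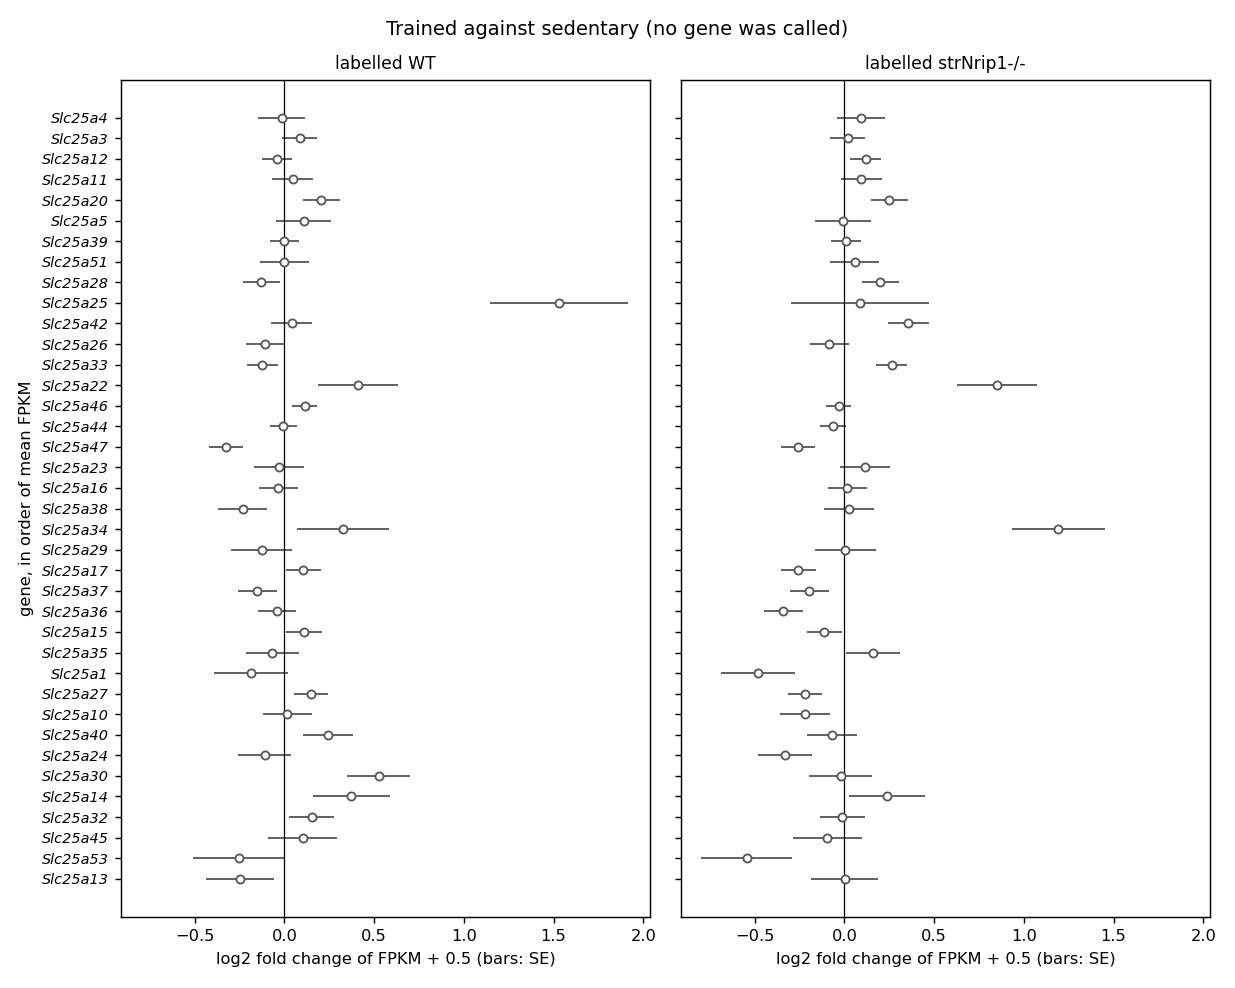
Difference between trained and sedentary libraries for the plotted carriers, as log2 fold change of FPKM + 0.5 with its SE, in libraries labelled WT (left) and labelled strNrip1-/- (right), n = 3 libraries a group. Open points were not called, which holds for every gene plotted; Slc25a25 lies farthest from 0 on the left and Slc25a34 on the right.

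The genotype by training interaction called 0 carriers and 0% of all genes tested. Unadjusted p under 0.05 were found for 6 carriers (Slc25a17, Slc25a25, Slc25a27, Slc25a28, Slc25a33 and Slc25a34), 15.4% of the family, beside 7.76% of all genes. The lowest adjusted p of the family was 0.5609, for Slc25a33, a pyrimidine nucleotide carrier, whose differences were -0.13 in sedentary and 0.26 in trained libraries. Of its exon bases, 14.9% overlap the antisense gene Gm13068.

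Enzymes that work with the carriers, on substrates brought to them or delivered by them, were also compared. Of 10 such genes, 4 (40%) were called in sedentary libraries, beside 3.51% of all genes tested, and 5 (50%) in trained libraries, beside 5.98%. All calls were higher in labelled strNrip1-/-, and the medians of the 10 genes were 0.38 and 0.42. Cpt2, which turns the acylcarnitine delivered by Slc25a20 back into acyl-CoA, was at 22.6, 24.5 and 24.6 FPKM in sedentary labelled WT and 38.1, 37.8 and 35.9 FPKM in sedentary labelled strNrip1-/- libraries, with a log2 fold change of 0.63 ± 0.08 (limma, adjusted p = 0.001345). In trained libraries its difference was 0.60 ± 0.08 (adjusted p = 0.001552). Cpt1b, which makes acylcarnitine at the outer membrane of muscle mitochondria, was called in trained libraries (0.34 ± 0.07, adjusted p = 0.0158). The aspartate aminotransferases of the malate-aspartate shuttle were called in both states, Got1 of the cytosol by 0.70 ± 0.08 and 0.69 ± 0.08 and Got2 of the matrix by 0.54 ± 0.10 and 0.49 ± 0.10. Ckmt2, the mitochondrial creatine kinase that uses ATP exported by Slc25a4, was called by 0.74 ± 0.12 and 0.64 ± 0.12.

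Other proteins of the mitochondrial membranes were compared in the same way. Of 21 other transporters, 1 (4.76%) was called in sedentary libraries, beside 3.51% of all genes tested, and 3 (14.3%) in trained libraries, beside 5.98%. All of these calls were higher in libraries labelled strNrip1-/-. Of the 21 transporters, 15 had values above 0 and 6 below in sedentary libraries, and 16 above and 5 below in trained libraries. Their medians were 0.12 and 0.10. Abcb8 was called in both, at 0.48 ± 0.08 in sedentary libraries (limma, adjusted p = 0.007678) and 0.58 ± 0.08 in trained libraries. The sideroflexin Sfxn5 was called in trained libraries (0.71 ± 0.18). Of the 5 proteins of the same fold that do not bear the Slc25a name, Ucp1, Ucp2, Ucp3, Mtch1 and Mtch2, 0 were called in either genotype comparison.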

How the data were processed

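Whole EDL RNA was sequenced in 12 libraries prepared without strand information, and groups were taken from the sample labels. The authors quantified reads with Salmon 1.10.2 against mm10, summarized transcripts per gene through tximport and used DESeq2 1.44.0 for testing, and they deposited FPKM per gene and library. The deposited table also holds the authors' log2 fold changes and adjusted p-values of 4 comparisons, which were not used. The annotation release and the function that gave the FPKM are not given in the sources used here.

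FPKM is not a count, so log2(FPKM + 0.5) of the 12744 genes was fitted with limma 3.58.1 in R 4.3.3 (4 group means over all 12 libraries, mean-dependent variance prior, two-sided, Benjamini-Hochberg within a comparison). A gene was called at an adjusted p under 0.05 and a fold change over 1.2, the thresholds of the study, and the interaction by adjusted p alone. The fit was tested on simulated data. Depth came from the step size between low FPKM values, 437 to 494 per library, of which 99.1% to 99.6% lay within 0.15 of a whole fragment; this limit covers counting error only. Gene positions and overlaps came from GENCODE M21, in which 17745 identifiers matched, and promoters from RefSeq on GRCm38.p6.

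Values by library are given for carriers called in any comparison and for the highest of each role, and for partner genes only where called. The carriers, their roles and the other gene lists were chosen with earlier results of these data known. Alternatives changed the pseudocount, the minimum, the scaling, the libraries fitted and the replicate block. Values of 1 carrier and 1 other transporter are counted in the sums and counts but are not reported here, and the plots leave out that carrier.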

Additional observations from a re-analysis of the deposited data

How the results depend on the processing

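The called carriers were 3 in sedentary and 6 in trained genotype comparisons. The sedentary count was 6 with libraries rescaled to the same sum of nuclear genes and 1 with only the 6 libraries compared, and leaving out 1 library at a time gave 1 to 4; it was 1 without sedentary labelled WT replicate 1 or 3 or sedentary labelled strNrip1-/- replicate 2. The trained count ran from 3, without trained labelled strNrip1-/- replicate 3, to 8 when 1 library was left out, and was 9 under both rescalings. For training in libraries labelled strNrip1-/- it was 2 with libraries rescaled to the same sum. The cause of these shifts was not tested. Counts for training in libraries labelled WT and for the interaction were 0 in each setting run.

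The median log2 fold change of the carriers was -0.06 in sedentary, 0.04 in trained, -0.04 in labelled WT training, 0.17 in labelled strNrip1-/- training and 0.23 in the interaction with libraries rescaled to the same sum, where the medians of all genes were -0.14, 0.06, -0.04, 0.16 and 0.20. With the same sum of nuclear genes it was 0.16, 0.02 and -0.03 in sedentary, trained and the interaction. With a minimum of 5 FPKM it was 0.17 in trained libraries and 0.05 in the interaction, and with quantile normalization -0.04 in the interaction. Leaving out 1 library gave 0.07 to 0.13 in sedentary, -0.02 to 0.02 in trained, -0.02 to 0.03 and -0.05 to 0.04 in labelled WT and labelled strNrip1-/- training, and -0.05 to 0.03 in the interaction. The ratio of summed carrier FPKM between labelled genotypes was 1.26, and 1.31 with the same sum of nuclear genes.

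Same-numbered libraries showed no steady pairing. Over 18 pairs the correlation of their deviations ran from -0.105 to 0.241, and it was over 0.1 in 5. The highest, 0.241, 0.195 and 0.162, were between replicate 2 libraries of both sedentary groups and trained labelled WT. With replicate 2 of trained labelled strNrip1-/- the values were -0.105, -0.0285 and -0.052. Replicate 2 also had the highest Slc25a4 level in sedentary labelled WT, sedentary labelled strNrip1-/- and trained labelled WT (2520, 3380 and 2650 FPKM). In 7 of 12 libraries the mean correlation with same-numbered libraries was above that with other-numbered libraries of the other groups. With a replicate block the counts of called carriers were 3 and 8, and Slc25a3 passed in trained libraries (adjusted p = 0.04698). Of 336 values under alternatives, those of the 7 called carriers and Nrip1 in both genotype comparisons, 299 kept their direction and side of the threshold, 26 lost a call, 11 gained one and 0 turned direction. Slc25a4, not called, was called under 1 alternative in sedentary and 5 in trained libraries, and Slc25a11 under 1 and 2. A gene of 2 kb at 0.5 FPKM had an estimated 20 to 29.2 fragments, so the values of the lowest carriers rest on few fragments.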
